A study of Mus musculus with 69 samples.

Results

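The late phase of the IL-4 response of SPRET macrophages was described from 4 RNA-seq libraries, 2 made after 6 hours and 2 made after 24 hours of IL-4, out of 69 samples in the series. The members were the TPM columns (TPM, an abundance scaled by transcript length and library depth) of those libraries in the time-course table, compared as log2(TPM + 1). The study compared bone marrow-derived macrophages (BMDMs) of inbred mouse strains to ask how natural genetic variation shapes the response to IL-4. SPRET (SPRET/EiJ) is a wild-derived inbred strain of Mus spretus, and the comparison strain C57 (C57BL/6J) is the strain of the reference genome. In both strains, marrow cells were differentiated for 7 days with M-CSF, and RNA was taken from untreated cells or after 1, 6 or 24 hours of IL-4 at 20 ng/ml, with 2 libraries per strain and time. Both groups compared here therefore carried IL-4, and they differed in its duration. Beside them, BMDMs of other experiments are used: separate SPRET libraries from the 5-strain experiment, untreated or given IL-4 for 24 hours (3 each), and Egr2 fl/fl cells, which carry a floxed Egr2 allele and no LyzM-Cre, after 6 and 24 hours of IL-4 (2 each). The study's methods call the libraries biological replicates. Whether those of a group came from separate animals or separate dishes is not given in the sources used here. The p-values rest on the spread between libraries of a group, pooled over all groups of an experiment, and not on the SPRET groups alone.

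IL-4 binds a receptor that activates the transcription factor STAT6, which switches macrophages toward the alternatively activated state. STAT6 induces genes directly within hours and also induces further factors, among them EGR2 and PPARγ, which act later. The state is known for arginase, chemokines that attract Th2 cells, lectin receptors, lipid uptake and oxidation, and matrix proteins.

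The time-course libraries held 5.70 to 24.0 M tags (M, 1e+06 tags), and the SPRET libraries 14.95 and 5.70 M at 6 hours and 23.8 and 9.45 M at 24 hours. The listed genes summed to a smaller TPM at 24 hours (611477 and 614581) than at 6 hours (642984 and 644527), and the median log2 difference over all tested genes was -0.09. Of 12 macrophage markers, 11 exceeded 1 TPM in at least 1 of the 4 libraries, led by Lyz2, and their summed TPM ran from 46779 to 48497 at 6 hours and from 42083 to 42347 at 24 hours. Fcgr1, an Fc receptor gene, was the exception, at 0.00 to 0.21 TPM. All markers of B, erythroid, endothelial and epithelial cells stayed under 1 TPM in all 4 libraries. Of 10 T or NK cell markers 8 did so. Klrb1c rose from 2.65 and 2.76 TPM to 6.66 and 6.74 TPM (log2 difference 1.06). Cd4 went the other way, from 3.18 and 3.29 TPM to 1.51 and 2.07 TPM, without a call at 2-fold. The mast cell or basophil list summed to 16.0 and 22.8 TPM at 6 hours and 11.4 and 12.4 TPM at 24 hours, mostly from Mcpt8 (13.3 and 20.2 TPM, then 9.06 and 8.87 TPM). The stromal list summed to 23.5 and 25.4 TPM and then 26.8 and 25.7 TPM, mostly from Pdgfrb. The neutrophil list summed to 65.1 and 66.0 TPM at 6 hours and 72.2 and 92.3 TPM at 24 hours, mostly from S100a8, with Ly6g, S100a9, Retnlg and Ngp listed at 0. The part of these markers in the results was not tested. In these bulk samples, fewer cells of a type and less RNA per cell cannot be told apart.

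Between 6 and 24 hours, 84 genes were higher and 140 were lower by more than 2-fold among 12088 genes tested, at an adjusted p under 0.05 by limma. These were 0.695% and 1.16% of the genes tested. The 2 libraries at 24 hours did not overlap the 2 at 6 hours for any of the 224 genes. Selection by fold and adjusted p favours such separation, so it is not added support for the calls. Its share over all genes tested was not computed. The largest rises were in Fbp1, Ptgds and the chemokine genes Ccl22 and Ccl17, and the largest falls in Serpinb10, Dab2 and F13a1. The balance depended on scaling: 104 higher and 104 lower with median-ratio scaling, and 99 higher and 110 lower with quantile normalization. Without a fold threshold, 749 genes were higher and 1983 lower, 6.2% and 16.4% of those tested.

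**Figure D1:**
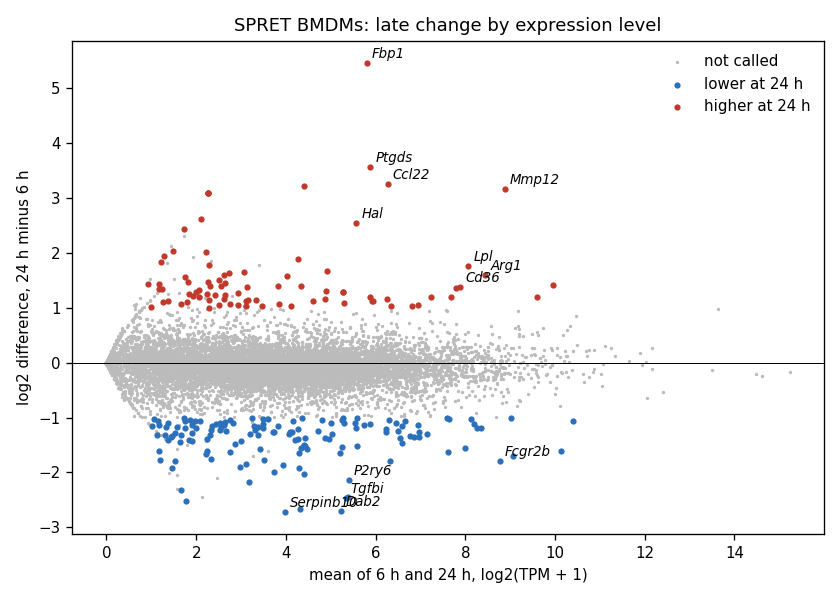
Log2 difference between 24 and 6 hours of IL-4 in SPRET BMDMs (y axis) against the mean log2(TPM + 1) of both times (x axis), with 1 point per gene tested, 84 higher genes in red and 140 lower genes in blue. Fbp1 stands apart at 5.46, and Mmp12, Lpl and Arg1 combine a rise with high abundance.

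Fbp1, which encodes the gluconeogenic enzyme fructose-1,6-bisphosphatase, rose most. Its level was 1.58 and 1.38 TPM at 6 hours and 109.9 and 105.6 TPM at 24 hours, a log2 difference of 5.46 ± 0.13 (SE, limma adjusted p = 2.99e-10). At 0 and 1 hour the means were 0.0315 and 0.0820 TPM, so almost all of its expression appeared after 6 hours. Ptgds encodes a prostaglandin D2 synthase. It stood at 6.79 and 9.83 TPM at 6 hours and at 103.0 and 112.6 TPM at 24 hours, 13.0 times the earlier mean. Ptgds was already present in untreated cells (11.9 TPM), unlike Fbp1. The Fbp1 gene lies on chromosome 13 (62864753 to 62888282, mm10, minus strand) and Ptgds on chromosome 2 (25466712 to 25469749, minus strand).

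Promoter windows of 250 bases before the start were read from RefSeq (GRCm38.p6, the C57 reference sequence and not that of SPRET) for genes leading the rise, to show which short motifs sit beside them. Capitals mark TTCNNNNGAA (STAT6), GAGGAAG (PU.1) or TGANTCA (AP-1), searched on both strands.
Fbp1, chr13:62888283-62888532, minus strand: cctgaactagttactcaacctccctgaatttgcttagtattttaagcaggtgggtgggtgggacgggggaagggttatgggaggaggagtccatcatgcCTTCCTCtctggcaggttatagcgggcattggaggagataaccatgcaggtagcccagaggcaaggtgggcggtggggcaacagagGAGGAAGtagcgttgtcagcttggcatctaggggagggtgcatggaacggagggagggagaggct
Ptgds, chr2:25469750-25469999, minus strand: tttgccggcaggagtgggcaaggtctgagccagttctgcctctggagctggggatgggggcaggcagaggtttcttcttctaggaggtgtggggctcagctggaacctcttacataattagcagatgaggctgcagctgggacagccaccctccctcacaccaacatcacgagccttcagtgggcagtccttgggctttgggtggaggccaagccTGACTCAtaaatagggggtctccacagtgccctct
Ccl17, chr8:94810203-94810452, plus strand: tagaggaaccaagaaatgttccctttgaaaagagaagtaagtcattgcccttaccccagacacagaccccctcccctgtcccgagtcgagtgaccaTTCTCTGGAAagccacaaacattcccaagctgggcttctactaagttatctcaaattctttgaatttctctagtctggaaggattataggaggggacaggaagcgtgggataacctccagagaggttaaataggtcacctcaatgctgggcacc
Mmp12, chr9:7347124-7347373, plus strand: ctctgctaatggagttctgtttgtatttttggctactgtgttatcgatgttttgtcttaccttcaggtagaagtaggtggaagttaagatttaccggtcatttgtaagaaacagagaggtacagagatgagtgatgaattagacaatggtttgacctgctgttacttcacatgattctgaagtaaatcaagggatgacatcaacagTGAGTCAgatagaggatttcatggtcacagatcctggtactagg
The Fbp1 window held PU.1 letters at 2 places, those of Ptgds and Mmp12 held AP-1 letters, and that of Ccl17 held STAT6 letters. The Ccl22 window held none of these, and a further Mmp12 window (chr9:7344147-7344396) held PU.1 letters and no AP-1 letters. A window was matched by symbol for 51 of the 84 higher and 107 of the 140 lower genes. STAT6 letters were in 9.80% of the higher, 7.48% of the lower and 5.68% of all 9143 tested genes with a window. PU.1 letters were in 23.5%, 20.6% and 13.3%, and AP-1 letters in 13.7% (7 of 51), 16 of 107 and 5.59%. The looser EGR letters GTGGGNG, searched separately and not capitalised, were in the Fbp1, Ccl22 and further Mmp12 windows. They were in 37.3% of the higher, 42.1% of the lower and 37.9% of all tested genes with a window. These shares are descriptions without a test.

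Among 37 tested genes of alternative activation, 7 were higher and 4 lower, with a median log2 difference of 0.03 against -0.09 over all tested genes. By the 2-fold rule, 0.695% of all genes tested were higher and 1.16% lower. These shares stand beside this and each later SPRET list count by that rule. Ccl22 and Ccl17, ligands of the receptor CCR4, both rose. Ccl22 went from 13.6 and 13.8 TPM to 147.6 and 130.0 TPM, and Ccl17 from 1.95 and 4.55 TPM to 42.2 and 31.5 TPM. Arg1, the arginase that turns arginine into ornithine, increased again after its early induction. It measured 177.7 and 166.1 TPM at 6 hours and 578.6 and 471.7 TPM at 24 hours, from 3.57 TPM in untreated cells (log2 difference 1.60 ± 0.18, limma adjusted p = 5.11e-05). Ear2, a ribonuclease gene, was listed at 0 in both libraries at 6 hours and at 7.54 and 7.60 TPM at 24 hours. Ear12 and Ear3 had identical values because both are listed at the same interval of chromosome 14 (44102887 to 44103357). That interval lies inside the one listed for Ear2 (44102654 to 44103531), so these rises are not separate results. Near-copies among Ear genes can also share reads, so the assignment to single Ear genes is uncertain. Fn1, Tgm2 and Rbp4 were the other members that rose, and F13a1, Pdcd1lg2, Ptgs1 and Cdh1 fell.

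Egr2, an IL-4-induced transcription factor, was at 145.3 and 149.2 TPM at 6 hours and 160.2 and 149.1 TPM at 24 hours, so the groups overlapped (log2 difference 0.07 ± 0.06). Pparg, the fatty acid-sensing nuclear receptor, was 15.7 and 12.5 TPM and then 20.8 and 21.5 TPM, a log2 difference of 0.56 with a limma adjusted p of 0.00541 that stayed under 2-fold. Retnla (0.51), Chil3 (0.08), Socs1 (-0.42) and Ccl24 (-0.52) also stayed under 2-fold. Mrc1, the mannose receptor, was 554.3 and 545.7 TPM and then 281.8 and 270.2 TPM, a log2 difference of -0.99 ± 0.05 (limma adjusted p = 1.92e-07). It lay just under the 2-fold threshold and passed it without the second library at 6 hours (-1.004) or the first at 24 hours (-1.02).

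Of 26 tested PPAR targets and genes of fatty acid uptake and oxidation, 4 were higher and 0 lower by the 2-fold rule, with 9 higher and 4 lower without it and a median of 0.07. Lpl, a secreted lipase, was 124.5 and 118.6 TPM at 6 hours and 411.9 and 412.0 TPM at 24 hours (1.75 ± 0.05, limma adjusted p = 9.73e-10). The fatty acid receptor gene Cd36 went from 132.1 and 128.2 TPM to 343.2 and 339.5 TPM. The lipid chaperone gene Fabp4 (1.20) and the lipase gene Mgll (1.19) rose as well. Lpl and Mgll showed no early rise, with means of 137.0 and 111.6 TPM before IL-4. Scd1, a desaturase, was the 1 called gene of 15 in fatty acid synthesis (1.16). Of 16 LXR targets, 0 were higher and 1, Pltp, was lower at -1.01, a call lost with median-ratio scaling (-0.90) and without the first library at 6 hours (-0.97) or the second at 24 hours (-0.95).

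Matrix and protease genes split. Of 31 tested, 4 were higher and 3 lower, with a median of -0.15. Mmp12, macrophage elastase, rose from 101.9 and 85.6 TPM to 864.7 and 823.7 TPM (3.16 ± 0.09, limma adjusted p = 9.73e-10). Spp1 (1.41), Fn1 (1.19) and Thbs1 (1.45) encode secreted matrix proteins and rose. Tgfbi, another secreted matrix protein, fell from 74.7 and 59.7 TPM to 11.4 and 11.2 TPM (-2.46 ± 0.10). Serpinb2 (-1.99) and the collagenase gene Mmp8 (-1.31) fell too.

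**Figure D2:**
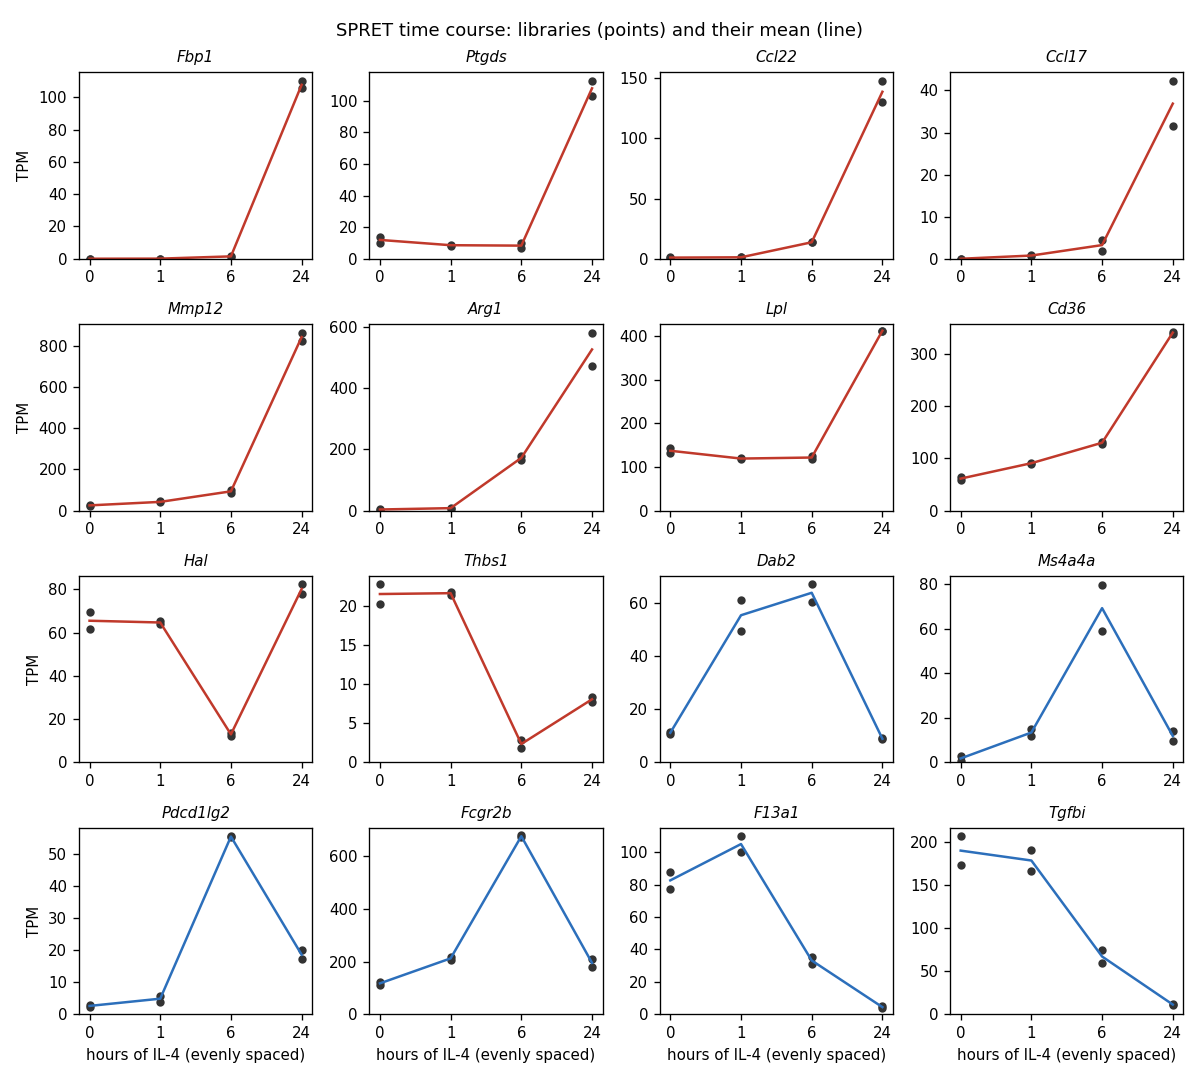
TPM (y axis) of 16 genes in SPRET BMDMs at 0, 1, 6 and 24 hours of IL-4 (x axis, evenly spaced), with both libraries as points and their mean as a line. The upper genes are higher at 24 than at 6 hours, Hal and Thbs1 after a low value at 6 hours, and the lower 6 genes are lower at 24 hours.

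The levels over the whole course differed among genes with a similar late change. Hal, which encodes histidine ammonia-lyase, had means of 65.5 and 64.7 TPM at 0 and 1 hour. It was 13.7 and 12.2 TPM at 6 hours and 82.6 and 77.7 TPM at 24 hours, so its late rise returned it to near the starting level. Dab2, an endocytic adaptor, had means of 11.1 TPM before IL-4 and 55.3 TPM at 1 hour. It then went from 67.0 and 60.3 TPM at 6 hours to 9.00 and 8.78 TPM at 24 hours (-2.71 ± 0.10, limma adjusted p = 8.41e-09). Ms4a4a, Ust, Pdcd1lg2 and Fcgr2b were likewise highest at 6 hours among the 4 times. Serpinb10, a protease inhibitor gene, had the largest fall, from 27.4 and 25.2 TPM to 3.57 and 2.78 TPM (-2.72 ± 0.12). F13a1, the coagulation factor XIII A chain, was instead highest before 6 hours, with means of 82.6 and 105.0 TPM at 0 and 1 hour. It fell from 31.1 and 35.3 TPM to 4.79 and 4.01 TPM (-2.66 ± 0.17). Clec4d and C5ar1 were likewise higher at 0 and 1 hour than at 6 hours.

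Of 30 tested chemokine, Toll-like and Fc receptor genes, 1 was higher and 6 lower, with a median of -0.38. Fcgr2b, the inhibitory Fc receptor, fell from 678.3 and 671.8 TPM to 209.4 and 180.4 TPM (-1.79 ± 0.08). The complement receptor genes C5ar1 (-1.30) and C3ar1 (-1.16), Tlr9 (-1.02), Hp (-1.24, haptoglobin, a plasma protein rather than a receptor) and the scavenger receptor gene Marco (-1.17) were lower. P2ry6, a UDP receptor gene, went from 71.5 and 64.7 TPM to 15.4 and 14.1 TPM (-2.13 ± 0.08). Of 22 tested antigen presentation genes, 12 were lower and 0 higher at an adjusted p under 0.05, beside 16.4% lower and 6.2% higher over all genes tested. Only Pdcd1lg2, which encodes the PD-1 ligand PD-L2, passed 2-fold (-1.53).

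Of 36 tested lysosome and cathepsin genes, 1 was higher and 1 lower. Ctsc, a cathepsin gene, fell from 195.5 and 202.2 TPM to 80.2 and 80.8 TPM, and Atp6v0d2, a proton pump subunit gene, rose by 1.03 on the log2 scale (0.96 without the first library at 24 hours). Of 19 macrophage fusion genes, Ocstamp, needed for osteoclast fusion, was higher (1.48) and Cdh1, which encodes E-cadherin, was lower (-1.10, and under 2-fold with median-ratio scaling).

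The IL-4 signalling list shifted without large changes. Of 20 genes, 0 passed 2-fold, and 11 were lower and 1 higher at an adjusted p under 0.05, beside 16.4% lower and 6.2% higher over all genes tested. The list median was -0.29 in SPRET and -0.27 in C57, against -0.09 over all tested genes in SPRET. The kinase genes Jak2 (-0.98) and Jak3 (-0.94) and the receptor gene Il4ra (-0.74) were among the lower, and the adaptor gene Irs2 (0.73) was the higher one. By the 2-fold rule, inflammatory cytokines gave 3 higher of 28, Ccl3 (1.19), Ccl4 (1.16) and Il1a (1.13), and 0 lower. Of 43 interferon-stimulated genes, Ifi47 (-1.64) and Gbp7 (-1.18) were lower and 0 were higher. Ccl4 was 0.75 without the second library at 6 hours, Il1a 0.99 without the first at 24 hours, and Gbp7 -0.97 without the first at 6 hours, all under 2-fold. The immediate-early genes Egr1 (1.21) and Fos (1.15) rose from low levels. Fos had means of 10.0 TPM before IL-4 and 2.06 TPM at 6 hours, and at 24 hours (5.67 TPM) it stayed below the untreated level. Each lost its call without the second library at 6 hours (Egr1 at 1.11, by its adjusted p, and Fos at 0.89).

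Of 34 genes of G1-S and DNA replication, 9 were higher and 1 lower without the fold threshold (median 0.22), whereas of 40 mitosis genes 1 was higher and 15 were lower (median -0.25). Ccnb2 (-1.23) and Cdc20 (-1.19) passed 2-fold in the latter. Glycolysis and hypoxia genes gave 16 higher and 2 lower of 36 (median 0.23), oxidative phosphorylation 13 higher and 0 lower of 43 (median 0.11), and the unfolded protein list 10 higher and 0 lower of 27 (median 0.20). These counts, like those of the PPAR list, are without the fold threshold and stand beside 6.2% higher and 16.4% lower over all genes tested.

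**Figure D3:**
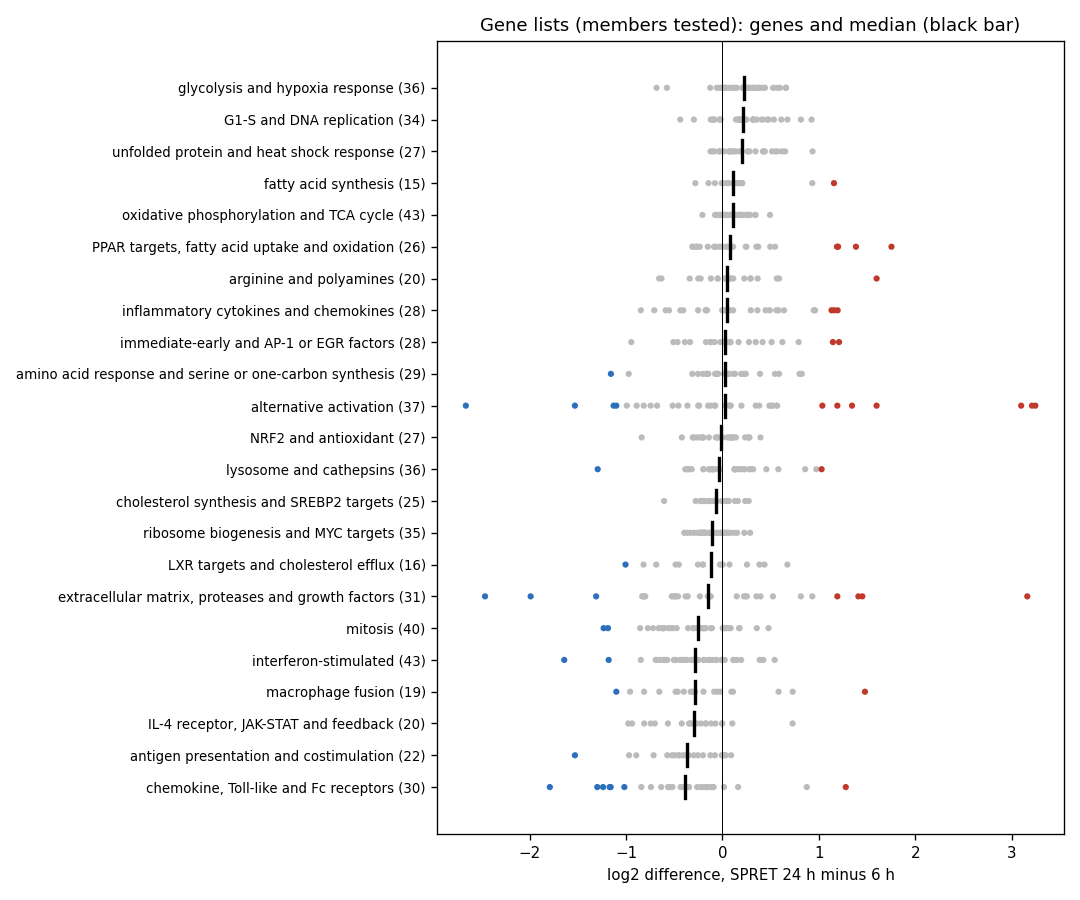
Log2 difference between 24 and 6 hours in SPRET BMDMs (x axis) for the tested members of 23 gene lists (y axis, number tested in brackets), with genes called higher in red, lower in blue and the list median as a black bar. Medians run from -0.38 for chemokine, Toll-like and Fc receptors to 0.23 for glycolysis.

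The same interval in C57 gave 190 higher and 243 lower genes (1.57% and 2.01% of those tested). Of the 84 genes that rose in SPRET, 23 rose in C57 (27.4% of the SPRET and 12.1% of the C57 genes), and of the 140 that fell, 41 fell in C57 (29.3% and 16.9%). Ccl4 and A530064D06Rik rose in SPRET and fell in C57, and Slc6a9, a glycine transporter gene, fell in SPRET (-1.16, and -0.82 without the first library at 24 hours) and rose in C57. The difference in late change between the strains was tested as an interaction, which was positive for 236 genes (1.95%) and negative for 269 (2.23%). It was positive past 2-fold for 39 of the 84 higher genes and negative for 52 of the 140 lower genes, although the choice of those genes by their SPRET change favours that direction.

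Fbp1 was listed at 0 in all 4 C57 libraries at 6 and 24 hours. Ptgds was at 0 in 3 of them and at 0.332 TPM in the other. Arg1 was far more abundant in C57, at 2553 and 2592 TPM at 6 hours and 1793 and 2156 TPM at 24 hours, and its late change differed between strains by 1.99 ± 0.26 (limma adjusted p = 0.000145). A late Arg1 rise was not particular to SPRET. In Egr2 fl/fl BMDMs, Arg1 went from 1200 and 1215 TPM to 3479 and 3411 TPM (1.51). Mmp12 rose in both strains and, on the log2 scale, by more in SPRET (interaction 1.55 ± 0.13). Its level was far higher in C57, at 1804 and 1889 TPM and then 5553 and 5707 TPM. Cd36 rose in both, with a C57 difference of 1.16. F13a1 was low in C57 (3.42 and 2.77 TPM, then 1.88 and 3.24 TPM), and its fall differed from C57 by -2.44 ± 0.24.

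**Figure D4:**
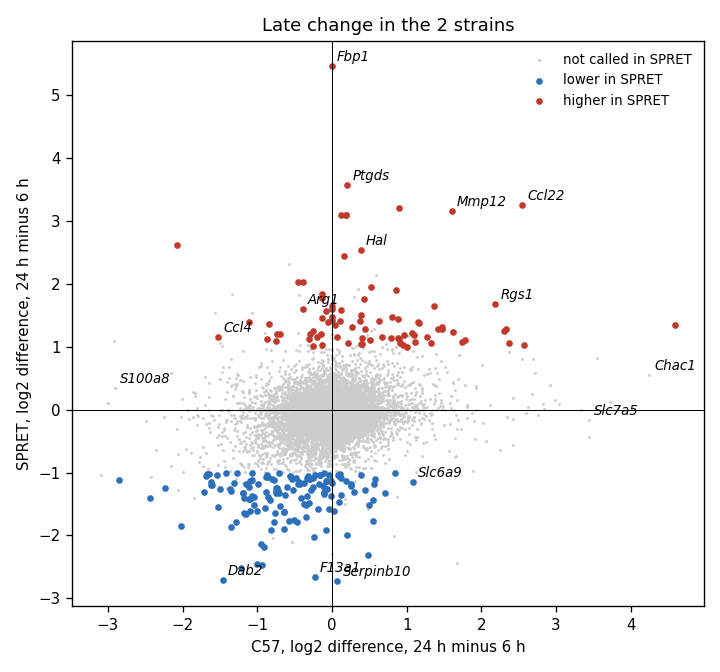
Log2 difference between 24 and 6 hours of IL-4 in SPRET (y axis) against the same difference in C57 (x axis), with 1 point per tested gene and the SPRET calls coloured. Fbp1 and Ptgds sit at 5.46 and 3.57 in SPRET and near 0 in C57, and Chac1 and Slc7a5 lie far to the right with little change in SPRET.

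In the separate 5-strain libraries, 276 genes were higher and 193 lower in SPRET after 24 hours of IL-4 than in untreated cells (2.32% and 1.62% of those tested). Of 78 late-rising genes tested there, 34 were higher and 3 lower (43.6% and 3.85%), and of 135 late-falling genes, 26 were higher and 25 lower. Fbp1 was listed at 0 untreated and at 8.10 ± 0.16 TPM after 24 hours (SD, n = 3), below its time-course level. Ms4a4a was at 223.1, 229.3 and 251.6 TPM there against 14.1 and 9.63 TPM in the time course at 24 hours, and Mmp12 at 117 ± 4.38 TPM against 864.7 and 823.7 TPM. Serpinb10 was higher after 24 hours than untreated there (means of 6.53 and 0.90 TPM). In the time course it was lower at 24 hours than untreated (means of 3.17 and 8.06 TPM). The tables were normalized separately, so the levels are set side by side and were not tested. In Egr2 fl/fl BMDMs without Cre, 111 genes were higher and 133 lower between 6 and 24 hours (0.919% and 1.1%). Of 71 late-rising SPRET genes tested there 28 rose (39.4% of them and 27.2% of the rising Egr2 fl/fl genes tested in both tables), and of 135 late-falling genes 28 fell (20.7% and 22.6%). Ccl22 was 1.02 and 1.02 TPM at 6 hours and 16.5 and 14.4 TPM at 24 hours in those cells.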

How the data were processed

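RNA-seq values were those deposited as TPM by the authors, who mapped reads to strain-specific genomes with STAR, shifted positions to mm10 and quantified exons with HOMER. The deposited tables also hold the authors' DESeq2 fold changes and p-values between conditions, which were not used. Poly(A) RNA libraries were analysed, and read counts per gene were not used here, so no counting interval was given.

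On the log2(TPM + 1) scale, 1 linear model per table was fitted by limma (version 3.58.1, R 4.3.3), with group means and a trended prior. The test covered every gene that reached 1 TPM in 2 or more libraries. A call needed more than 2-fold and a Benjamini-Hochberg adjusted p under 0.05 over all genes tested. The fit was tested on simulated data. Genes were named by a rule: the 15 largest rises and 15 largest falls with non-overlapping libraries and at least 5 TPM, up to 5 called members per list, the 5 largest strain differences in each direction, and 8 IL-4 genes. Other named list members were chosen after their values were seen. The members, gene lists and rules were chosen with earlier results of these data known. Alternatives were other pseudocounts, filters, scalings, model settings, subsets of libraries and leaving out each library. Human and F1 tables were not used. A gene that the rule named is not reported here.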

Additional observations from a re-analysis of the deposited data

Results flagged for a closer look

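The late change differed between SPRET and C57 for 236 genes in the positive and 269 genes in the negative direction by the limma interaction. The largest positive differences were Fbp1 (5.46), Snord45c (4.70), Mir5617 (4.00), Ptgds (3.36) and S100a8 (3.24). S100a8 changed little in SPRET (60.4 and 60.6 TPM, then 68.8 and 86.0 TPM) and fell in C57 from 62.4 and 51.7 TPM to 6.02 and 7.52 TPM. The largest negative differences were Mir1231 (-4.12), Aqp9 (-3.87), Chac1 (-3.70), Slc7a5 (-3.61) and Trib3 (-3.59). The Mir1231 difference lost its call without a filter (limma adjusted p = 0.0598), with a robust prior (0.0602) and without single libraries in 5 cases (0.0532 to 0.0840). Trib3 was 2.43 and 2.41 TPM at 6 hours and 3.10 and 2.40 TPM at 24 hours in SPRET, against 5.58 and 5.97 TPM and then 91.8 and 84.5 TPM in C57. Chac1, Slc7a5 and Trib3 respond to amino acid shortage. Of the 29 tested genes of the amino acid response and serine or one-carbon synthesis, 23 were higher in C57, whereas in SPRET 0 were higher and 1 was lower. Over all genes tested, 1.57% were higher in C57, and 0.695% were higher and 1.16% lower in SPRET. The C57 rise was not particular in its absence to SPRET. In Egr2 fl/fl BMDMs the late differences were 0.20 for Chac1, 0.22 for Slc7a5 and 0.68 for Trib3, against 4.25, 3.45 and 3.72 in C57. Snord45c, Mir5617 and Mir1231 are small RNA genes that poly(A) libraries do not measure well, and they can share reads with a host gene.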

How the results depend on the processing

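With a pseudocount of 5 TPM, the SPRET calls fell to 32 higher and 63 lower, the C57 calls to 90 and 118, and the strain differences to 103 and 125. With 0.1 TPM, 244 genes were lower in SPRET and 401 in C57. The other 4 counts at 0.1 TPM, and all 6 counts under the other filters, scalings and model settings, stayed within 1.5 times those reported. Leaving out each library gave 73 to 98 higher and 124 to 163 lower genes in SPRET, 187 to 211 and 230 to 299 in C57, and 219 to 262 and 254 to 289 for the strain difference, with a lone library assumed to vary like the other groups. Residuals of same-numbered SPRET libraries correlated only at -0.033 to 0.11, which cannot show whether those libraries share an animal or culture. A replicate block gave 83 and 141 genes in SPRET, 191 and 246 in C57 and 239 and 273 for the difference.

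Of 72 gene results, 18 lost their call under at least 1 alternative, most often at 5 TPM (16). Chil3, at 0.08, ran from -0.32 to 0.49 when single libraries were left out, and reversed to -0.13 and -0.32 without the first library at 6 or 24 hours. Snord45c, Mir692-1 and Mir1231 lost their calls without single libraries. With 2 libraries per group, depth and spread limit low genes.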
